A study of Chlamydomonas reinhardtii with 24 samples.

Results

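Photosystem I (PSI) is the thylakoid complex that takes electrons from plastocyanin or cytochrome c6 in the lumen and passes them to ferredoxin in the stroma. Its core is built around chloroplast-encoded proteins, and the surrounding subunits, made from nuclear genes, hold the electron carriers, the LHCI antenna and mobile LHCII in place. UV-B responses of green algae run through the photoreceptor UVR8 and are best known for raising photoprotection around photosystem II (PSII). The transcripts of 8 nuclear PSI subunit genes were followed here in the unicellular alga Chlamydomonas reinhardtii. They were chosen by name and locus identifier. The rows were PSAD (Cre05.g238332_4532.v6.1) and PSAE (Cre10.g420350_4532.v6.1), PSAF (Cre09.g412100_4532.v6.1) and PSAN (Cre02.g082500_4532.v6.1), PSAH (Cre07.g330250_4532.v6.1), PSAL (Cre12.g486300_4532.v6.1) and PSAO (Cre07.g334550_4532.v6.1), and PSAK (Cre17.g724300_4532.v6.1). All 8 were found among the 14621 genes of the count table, and all 8 were among the 13613 genes with enough counts to be tested. A further nuclear subunit gene, PSAG, was not analysed here.

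The 24 mRNA libraries came from 4 genotypes, each with and without UV-B, at 3 libraries per group. The mutants were uvr8, which carries an insertion in the gene of the UV-B photoreceptor, co (CrCo) and hy5 (CrBlz3), the last 2 in transcription regulators named after CONSTANS and HY5 of plants. Each mutant was a single strain of the insertion library, and the WT strain CC5325 was its comparison. All cultures, controls included, had grown on acetate medium under constant dim light (20 µmol photons per square metre per second) and were moved to minimal medium before treatment, still in dim light. UV-B groups received 0.2 mW per square centimetre of narrowband UV-B for 1 h through a glass filter whose edge lay at 311 nm. For the control groups the filter edge lay at 360 nm, which holds UV-B back. The labels do not say whether the 3 libraries of a group came from separate cultures, and the p-values therefore cover the spread between libraries, which may be technical, and no more.

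Libraries held 19267700 to 27686700 counts, and the 24 within-group pairs differed by far more than counting noise (the chi-square statistic was 21.7 to 135 per degree of freedom), and each library counted as a sample. In co the CO transcript averaged 9.91 CPM (counts scaled to library size) with and 7.77 CPM without UV-B, against 772 and 615 CPM in WT. In hy5 the HY5 transcript averaged 0.931 CPM with and 0.824 CPM without UV-B, against 162 and 8.40 CPM in WT. UVR8 averaged 25.8 CPM with and 24.6 CPM without UV-B in uvr8, against 30.4 and 40.0 CPM in WT, so its level separates that strain from WT less clearly. CPM values below use library sizes scaled by the trimmed mean of M-values (TMM), and are given as mean ± SD of n = 3 libraries. A change is a log2 fold change with its SE from edgeR's quasi-likelihood test, called at an adjusted p under 0.05 over all 13613 genes. CPM is a share of the RNA in a library, so less PSI mRNA per cell and more of other mRNA cannot be told apart.

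PSI subunit transcripts were abundant in all 8 groups. Counts of a single member ranged from 12503 to 95552 per library, and the 8 genes together took 0.964% to 1.73% of a library's counts. Scatter between libraries of a group was small, with a biological coefficient of variation of 0.132 (PSAL) to 0.155 (PSAO), against a median of 0.226 over all genes tested. By mean CPM the members ranked 69 (PSAF) to 179 (PSAN) among the genes tested. The median for genes of like abundance is not given here, so the small scatter is not read as a trait of the members. PSAN varied most over the 24 libraries, at 563 to 1218 CPM around a median of 946 CPM (coefficient of variation 21.2%). The others had coefficients of variation of 11.2% (PSAL) to 15.9% (PSAO). All 8 members had their lowest group mean in hy5 with UV-B. Their highest lay in uvr8, for 6 members with UV-B and for PSAD and PSAH without it. Summed over the 8 genes, the level was 11029 ± 1243 CPM in hy5 with UV-B and 13888 ± 1200 CPM in hy5 without it, 15648 ± 809 CPM with and 14919 ± 1592 CPM without UV-B in uvr8, 13226 ± 524 CPM with and 13379 ± 1612 CPM without it in co, and 13605 ± 942 CPM with and 13864 ± 1168 CPM without it in WT.

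**Figure D1:**
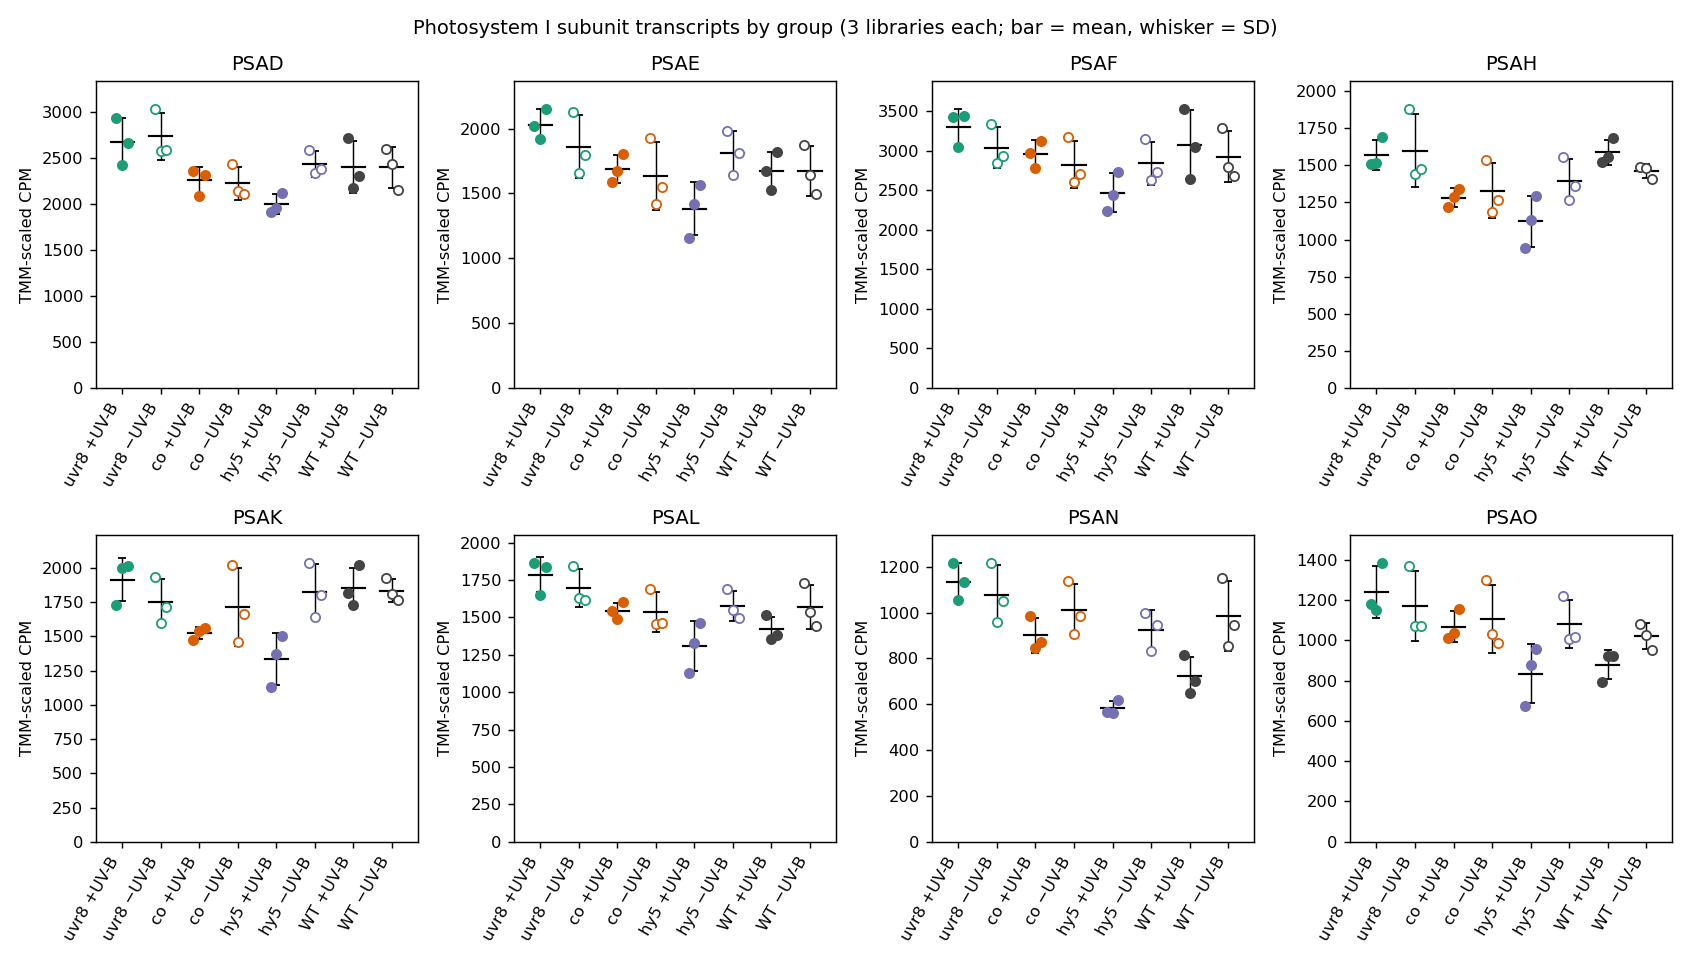
Level of each PSI subunit transcript (TMM-scaled CPM, vertical axis from 0) in the 8 groups, with 1 point per library, filled with UV-B and open without, a bar at the mean and a whisker for the SD of 3 libraries. The hy5 libraries with UV-B have the lowest mean in all 8 panels, and PSAN with UV-B is also low in WT (723 CPM).

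Whether UV-B alters PSI transcripts in cells with intact signalling was read from WT. PSAN, a lumen-side subunit that in Arabidopsis helps plastocyanin to dock, fell, while the other 7 members did not pass the test. PSAN stood at 816, 651 and 703 CPM in the WT libraries with UV-B and at 1152, 854 and 947 CPM in those without. The 2 groups did not overlap, and the lowest control library was only slightly above the highest UV-B library. The log2 fold change was -0.44 (SE 0.14, adjusted p = 0.0352). One of the 8 members was thus called lower, beside 5.7% of all genes tested, and 0 were called higher, beside 10.6%. Leaving out WT control library 1 or 3 (adjusted p = 0.140 and 0.0724) or WT UV-B library 2 or 3 (adjusted p = 0.116 and 0.101) ended the PSAN call, as did fitting the 6 WT libraries by themselves (adjusted p = 0.227). Same-numbered libraries deviated together here, and with a block for the replicate number PSAN was called (adjusted p = 0.000971), beside 12.8% of all genes called lower. Without every library numbered 1, a check chosen after the values were seen, it was also called (adjusted p = 0.0164), where 3082 genes were called. PSAO, which in Arabidopsis belongs to the side of PSI where LHCII docks, was at 796, 922 and 922 CPM with UV-B against 1082, 1025 and 954 CPM without. These libraries did not overlap either, but the log2 fold change of -0.21 (SE 0.15) had an adjusted p = 0.394. PSAH libraries with UV-B lay above those without, at 1524 to 1684 against 1410 to 1489 CPM (log2 fold change 0.12, adjusted p = 0.625). Thus 1 of 8 members did not overlap upwards and 2 downwards. The share of all genes without overlap in WT is not given here, so these counts are not read as a result.

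The subunits that form the stromal ridge, where ferredoxin binds, had log2 fold changes in WT with intervals centred near 0. PSAD averaged 2398 ± 283 CPM with UV-B and 2396 ± 227 CPM without (95% interval of the log2 fold change -0.25 to 0.25). PSAE averaged 1671 ± 147 CPM with UV-B and 1672 ± 190 CPM without (-0.30 to 0.30). PSAF, the subunit on which plastocyanin and cytochrome c6 dock in Chlamydomonas, averaged 3070 ± 442 CPM with UV-B and 2924 ± 321 CPM without (-0.20 to 0.35). For all of PSAD, PSAE and PSAF the libraries with and without UV-B overlapped, as they did for PSAK and PSAL. PSAK, a peripheral subunit on the antenna side, averaged 1854 ± 149 CPM with UV-B and 1834.5 ± 82.1 CPM without (-0.27 to 0.30). PSAL, the neighbour of PSAH at the LHCII docking side, averaged 1420 ± 86.3 CPM with UV-B and 1572 ± 147 CPM without (-0.39 to 0.10). Over the 8 members the median log2 fold change was 0.00035, beside 0.0094 over all genes. Among the 179 genes, members included, whose mean CPM was at least that of the lowest member, the median was 0.26. Of these 179, 16.8% were called higher and 3.35% lower. With library totals in place of TMM factors, all 8 log2 fold changes in WT were negative (median -0.26), 3 members were called lower, beside 14.1% of all genes, and the median of all genes was moved by -0.26 as well. Relative to that median the members stood at -0.012 with totals and at -0.0091 with TMM.

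**Figure D2:**
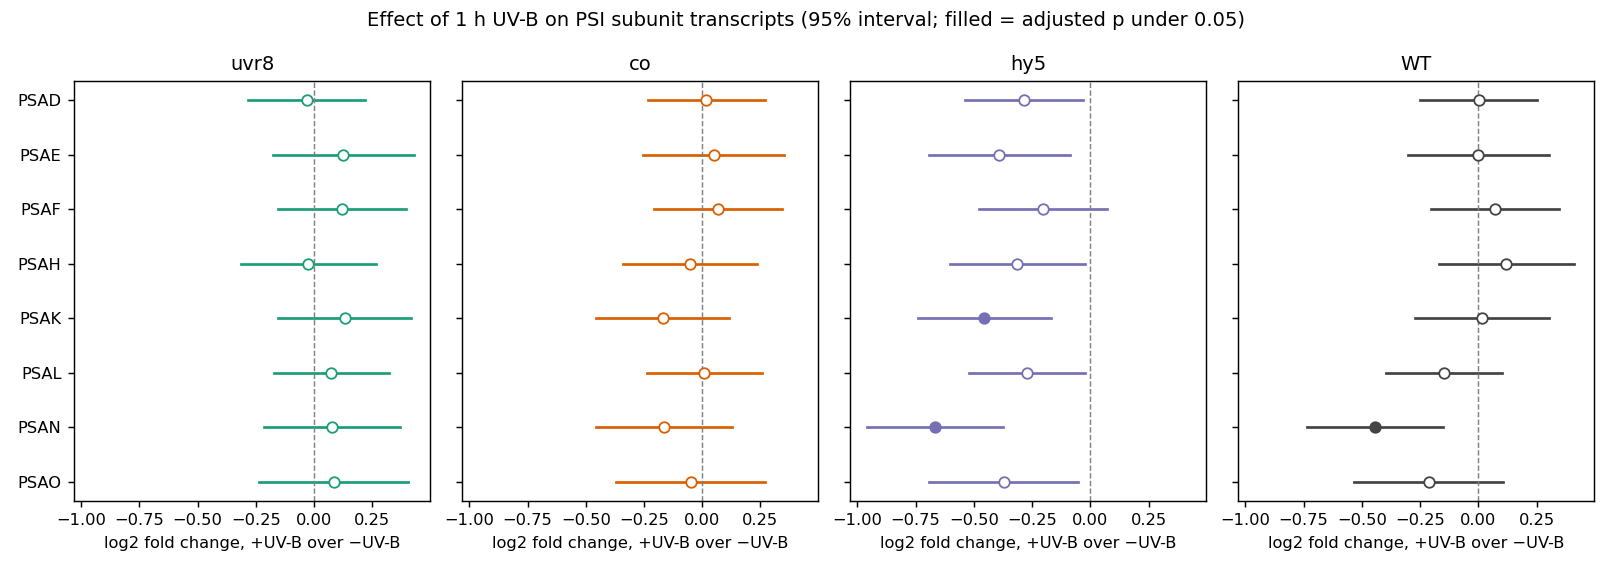
Log2 fold change of each PSI subunit transcript with UV-B over without UV-B (horizontal axis) in uvr8, co, hy5 and WT, with 95% intervals from edgeR and filled points where the adjusted p was under 0.05. In hy5 all 8 points lie below 0 with each of the 3 scalings tried, and PSAK and PSAN are filled, while in WT only PSAN is.

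In uvr8 no PSI transcript passed the test for a response to UV-B. EdgeR called 0 of 8 members beside 0% of all genes, 0 at an unadjusted p under 0.05, beside 8.88%, and 0 with DESeq2, beside 0.105%. PSAN stood at 1218, 1054 and 1134 CPM with UV-B against 1217, 960 and 1051 CPM without, ranges that overlap almost wholly. Its log2 fold change of 0.08 had a 95% interval of -0.21 to 0.37. Over the members log2 fold changes ran from -0.03 (PSAD) to 0.13 (PSAK), and PSAD and PSAH, negative here, were positive with library totals. In co likewise 0 of 8 members were called, beside 1.72% of all genes, 0 at an unadjusted p under 0.05, beside 8.54%, and 0 with DESeq2, beside 2.62%. PSAN in co stood at 986, 843 and 873 CPM with UV-B against 1136, 908 and 984 CPM without, and these libraries overlapped. The log2 fold change was -0.16 (95% interval -0.46 to 0.13).

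In hy5, PSAN and PSAK fell with UV-B, and the other 6 members had negative log2 fold changes that did not pass the test. PSAN stood at 566, 563 and 621 CPM with UV-B against 998, 834 and 945 CPM without. The highest UV-B library lay well below the lowest control, and the log2 fold change was -0.67 (SE 0.14, adjusted p = 0.00300). PSAK was at 1131, 1370 and 1501 CPM with UV-B against 2040, 1642 and 1802 CPM without, again with no overlap (log2 fold change -0.45, SE 0.14, adjusted p = 0.0403). These 2 of 8 stand beside 2.54% of all genes called lower and 7.04% called higher. Of the 179 genes at least as abundant, 7.26% were called lower and 4.47% higher, with a median log2 fold change of -0.046. The PSAN fall passed in all 6 fits that left out 1 hy5 library (log2 fold change -0.74 to -0.61, adjusted p = 0.00416 to 0.0200). The PSAK call ended without hy5 UV-B library 1 or 2 (adjusted p = 0.181 and 0.0915), without hy5 control library 1 or 3 (adjusted p = 0.138 and 0.104), and when the 6 hy5 libraries were fitted by themselves (adjusted p = 0.130).

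Of these 6, PSAE had the most negative value. It averaged 1381 ± 204 CPM with UV-B and 1811 ± 172 CPM without (log2 fold change -0.39, 95% interval -0.69 to -0.09). PSAO averaged 835 ± 147 CPM with UV-B and 1081 ± 121 CPM without (-0.37, adjusted p = 0.154), and PSAH 1123 ± 173 CPM with UV-B and 1394 ± 146 CPM without (-0.31, adjusted p = 0.195). The libraries with UV-B lay wholly below those without for PSAE and PSAO but not for PSAH. PSAD averaged 1998 ± 109 CPM with UV-B and 2433 ± 137 CPM without (-0.28, adjusted p = 0.174), and PSAL 1307 ± 167 CPM with UV-B and 1578 ± 99.1 CPM without (-0.27, adjusted p = 0.188). PSAF had the smallest change, at 2468 ± 245 CPM with UV-B and 2837 ± 276 CPM without (-0.20, adjusted p = 0.439), and with PSAH it was one of the 2 members whose libraries overlapped. Libraries with UV-B lay wholly below those without for 6 of 8 members, beside 9.76% of all genes. At an unadjusted p under 0.05 stood 7 of 8, beside 20.7% of all genes in either direction. DESeq2 called 7 of 8 lower, beside 4.24% of its genes. The members' median log2 fold change was -0.34, against -0.0041 over all genes. It was -0.38 with size factors from DESeq2's method and -0.42 with library totals. In 7 of 8 members the lowest of all 24 libraries was hy5 UV-B library 1. Without every library numbered 1, a check chosen after the values were seen, PSAN was the only member called in hy5 (-0.59, adjusted p = 0.00424). In that fit 2625 of all genes were called in either direction, against 1305 in the main fit. PSAK stood at -0.26 (adjusted p = 0.114). The other 6 members ran from -0.21 (PSAE) to -0.05 (PSAF). Every member's change was smaller in size than with all 24 libraries, so the shared fall rests in part on the libraries numbered 1.

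Whether the UV-B effect differed between genotypes was tested directly. For hy5 minus WT, 0 of 8 members passed in edgeR, beside 0.0294% of all genes, 2 at an unadjusted p under 0.05, beside 3.14%, and 0 with DESeq2, beside 0.069%. All 8 differences were negative with TMM and 6 of 8 with library totals, from -0.47 (PSAK, 95% interval -0.88 to -0.06) to -0.12 (PSAL, -0.47 to 0.22), and PSAN differed by -0.22 (-0.64 to 0.19). The lower PSI levels in hy5 under UV-B are therefore not shown to be a different response from that of WT. For uvr8 minus WT, 0 of 8 passed, beside 6.29% of all genes, 1 at an unadjusted p under 0.05, beside 18.6%, and 0 with DESeq2, beside 8.93%. That one was PSAN, with a difference of 0.52 (SE 0.20, 95% interval 0.11 to 0.94, adjusted p = 0.142). PSAN was called with library totals (0.85, adjusted p = 0.000214), beside 4.29% of all genes called higher. It was also called without every library numbered 1 (0.57, adjusted p = 0.0437), a check chosen after the values were seen. In that fit 1387 of all genes were called in either direction, against 856 in the main fit. For co minus WT, 0 of 8 passed, beside 1.75% of all genes, 0 at an unadjusted p under 0.05, beside 9.45%, and 0 with DESeq2, beside 3.09%.

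Without UV-B, no PSI transcript passed the test for a difference between a mutant and WT. EdgeR called 0 of 8 members in uvr8, beside 5.33% of all genes, 0 of 8 in co, beside 3.27%, and 0 of 8 in hy5, beside 4.26%. At an unadjusted p under 0.05 the counts were again 0 in each mutant, beside 18.8%, 17.1% and 18.3% of all genes in uvr8, co and hy5. With DESeq2 they were 0, beside 8.68%, 5.73% and 7.06%. Log2 fold changes against WT ran from -0.07 (PSAK) to 0.20 (PSAO) in uvr8, from -0.14 (PSAH) to 0.11 (PSAO) in co and from -0.09 (PSAN) to 0.12 (PSAE) in hy5. In co and hy5 all 8 became positive with library totals, which moved the median of all genes by 0.27 and 0.19. The SE of a member's log2 fold change was 0.12 to 0.15, so that differences of this size lie within the spread between libraries.

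Under UV-B, uvr8 had more PSAN and PSAO transcript than WT. PSAN stood at 1218, 1054 and 1134 CPM in uvr8 and at 816, 651 and 703 CPM in WT libraries (log2 fold change 0.65, SE 0.14, adjusted p = 0.00210). PSAO was at 1181, 1152 and 1386 CPM in uvr8 and at 796, 922 and 922 CPM in WT libraries (log2 fold change 0.49, SE 0.15, adjusted p = 0.0242). Every uvr8 library lay above every WT library for both genes. The 2 of 8 members called higher stand beside 9.29% of all genes, and 0 of 8 were called lower, beside 12.9%. Among the 179 genes, members included, whose mean CPM was at least that of the lowest member, 10.6% were called higher and 48% lower, with a median log2 fold change of -0.50, against 0.22 for the members. PSAL, at 1867, 1650 and 1839 CPM in uvr8 against 1518, 1358 and 1383 CPM in WT, had a log2 fold change of 0.33 (SE 0.12, adjusted p = 0.0517). With a block for the replicate number PSAL passed (adjusted p = 0.0186), where 16.4% of all genes were called higher. PSAE averaged 2031 ± 117 CPM in uvr8 and 1671 ± 147 CPM in WT without overlap (log2 fold change 0.28, adjusted p = 0.185), so that 4 of 8 members did not overlap upwards, beside 13.7% of all genes. PSAD, PSAF, PSAH and PSAK had log2 fold changes of -0.02 (PSAH, 0.0072 with DESeq2's size factors) to 0.16 (PSAD), and none of these 4 passed. The PSAN call passed in all 6 fits that left out 1 library (adjusted p = 0.00243 to 0.0123), and that of PSAO was lost without WT UV-B library 1 or uvr8 UV-B library 3 (adjusted p = 0.0871 and 0.0912). When the 6 libraries were fitted by themselves both calls were lost (adjusted p = 0.0914 for PSAN and 0.172 for PSAO).

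In hy5 under UV-B, PSAH and PSAK were lower than in WT. PSAH, next to which LHCII binds during state transitions in Arabidopsis, stood at 945, 1131 and 1291 CPM in hy5 and at 1524, 1557 and 1684 CPM in WT libraries (log2 fold change -0.50, SE 0.14, adjusted p = 0.0325). PSAK was at 1131, 1370 and 1501 CPM in hy5 and at 1816, 1728 and 2019 CPM in WT libraries (log2 fold change -0.48, SE 0.14, adjusted p = 0.0414). Libraries of the 2 groups did not overlap for either gene. The 2 of 8 stand beside 2.95% of all genes called lower and 3.83% called higher, and 4 of 8 members did not overlap downwards, beside 12.7% of all genes. Of the 179 genes at least as abundant, 48.6% were called lower and 2.23% higher, with a median log2 fold change of -0.62, further below 0 than the members' median of -0.29. With the replicate block PSAF and PSAN passed too (log2 fold changes -0.30 and -0.30, adjusted p = 0.0468 and 0.0255), beside 8.34% of all genes called lower. Both main calls were lost without WT UV-B libraries 1 or 3 or hy5 UV-B libraries 1 or 2 (adjusted p = 0.0765 to 0.178), when the 6 libraries were fitted by themselves, without the count filter, and with library totals (log2 fold changes -0.14 for PSAH and -0.11 for PSAK). All 8 members were below WT with TMM, and 2 of 8 with library totals, a scaling that moved the median of all genes by 0.36. Relative to that median the members stood at -0.25 with TMM and -0.24 with totals.

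In co under UV-B edgeR called 0 of 8 members, beside 19.1% of all genes, 2 at an unadjusted p under 0.05, beside 31.1%, and 0 with DESeq2, beside 21.6%. PSAN stood at 986, 843 and 873 CPM in co against 816, 651 and 703 CPM in WT, with no overlap (log2 fold change 0.32, SE 0.14, adjusted p = 0.128). With the replicate block it was called (adjusted p = 0.0105), beside 14.4% of all genes called higher. PSAO libraries of co lay wholly above those of WT as well, at 1012 to 1156 against 796 to 922 CPM (log2 fold change 0.28, adjusted p = 0.229). PSAH and PSAK lay on the other side of 0, with libraries wholly below those of WT (log2 fold changes -0.31 and -0.28, adjusted p = 0.133 and 0.170). Thus 2 of 8 members did not overlap upwards and 2 downwards, and the share of all genes without overlap is not given here. Of the 179 genes at least as abundant, 55.3% were called lower and 3.91% higher. With library totals, 6 of 8 members were called higher, beside 29.7% of all genes, and all 8 were positive, PSAD and PSAF among them (0.41 and 0.46, against -0.09 and -0.05 with TMM), while the median of all genes was moved by 0.49.

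**Figure D3:**
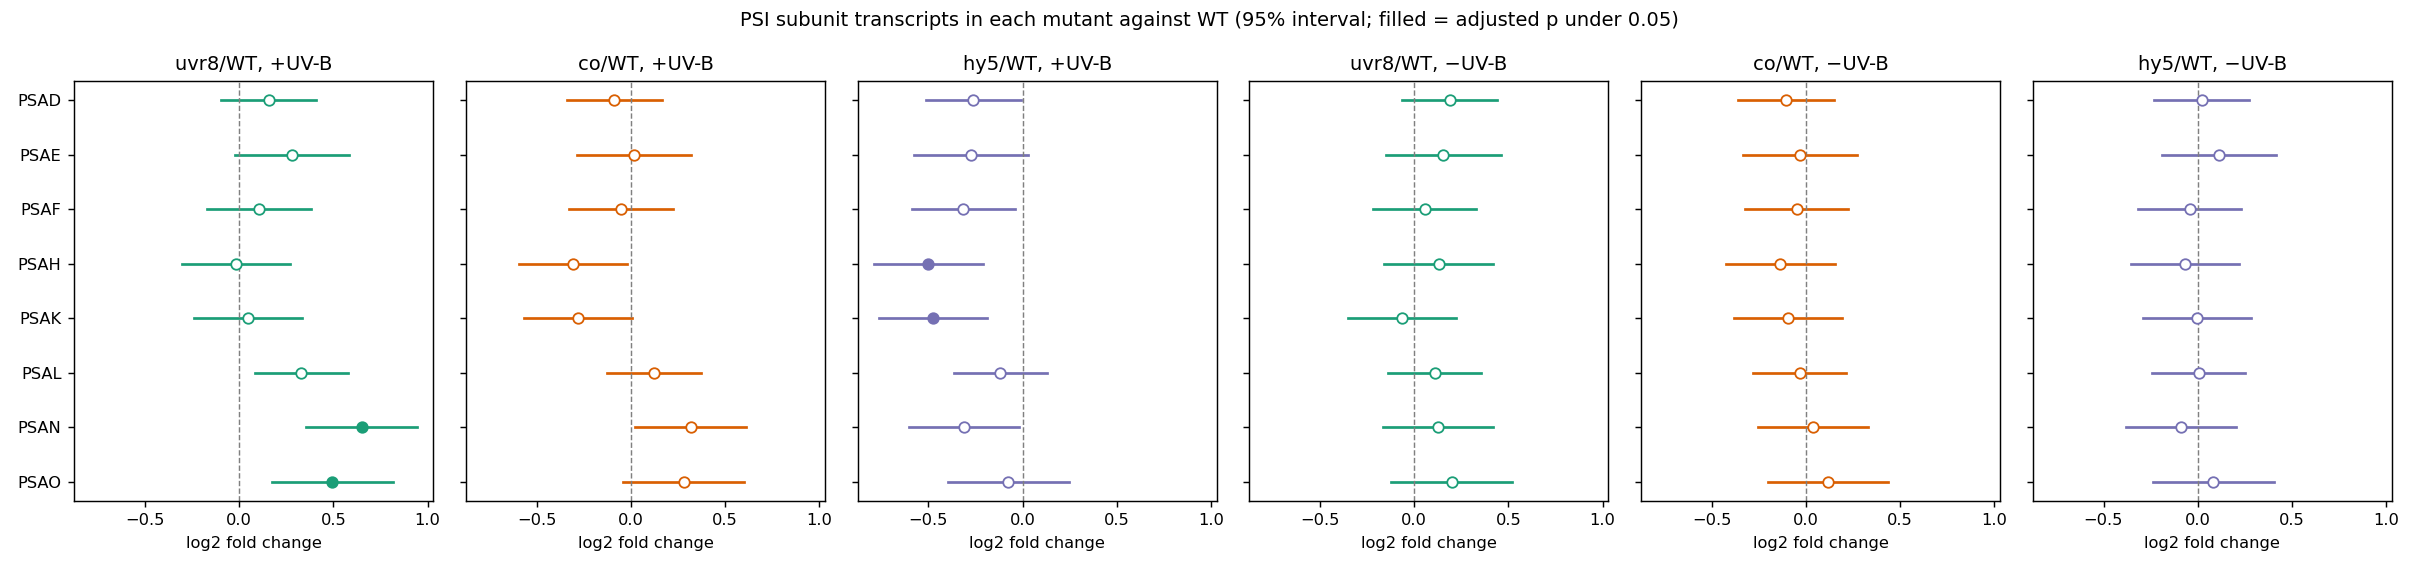
Log2 fold change of each PSI subunit transcript in uvr8, co and hy5 over WT (horizontal axis), with UV-B in the 3 left panels and without it in the 3 right panels, with 95% intervals from edgeR and filled points where the adjusted p was under 0.05. PSAN and PSAO are filled above 0 in uvr8 and PSAH and PSAK below 0 in hy5 with UV-B (TMM scaling; neither of the hy5 points is called with library totals), and no point is filled without UV-B.

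The makeup of the PSI transcript pool was then compared within libraries, where scaling has no part. PSAN made up 5.67%, 5.18% and 5.07% of the counts on the 8 genes in WT with UV-B, against 7.61%, 6.28% and 7.37% without it. In hy5 the shares were 5.80%, 5.08% and 5.07% with UV-B, against 6.56%, 6.47% and 6.98% without. In uvr8 they were 7.67%, 7.15% and 6.95% with UV-B and 7.27%, 6.97% and 7.38% without, and in co 7.49%, 6.62% and 6.33% with and 7.47%, 7.45% and 7.73% without. The 6 libraries with UV-B from WT and hy5 were thus the lowest of the 24. With 3 libraries against 3 an exact two-sided permutation test cannot go below p = 0.10, which it gave for WT and for hy5. All 8 genes were tested in every comparison without adjustment for the number of tests, so some pairs without overlap can arise by chance alone. PSAL also took a smaller share with UV-B in WT, at 10.4% ± 0.436 against 11.3% ± 0.0990 without it (exact p = 0.10). In hy5 with UV-B PSAK took a smaller share, at 12.1% ± 0.426 against 13.1% ± 0.366 without it, and PSAF a larger one, at 22.4% ± 0.486 against 20.4% ± 0.282 without it (exact p = 0.10 for both). The shares are parts of a common total, so a smaller share of some genes raises those of others. By CPM, PSAF in hy5 stood at 2468 with UV-B against 2837 without. The PSAF share was also larger with UV-B in co, at 22.4% ± 0.452 against 21.1% ± 0.276 without it, and that of PSAE in uvr8, at 12.98% ± 0.226 against 12.45% ± 0.378 without it, both without overlap (exact p = 0.10). Under UV-B the PSAL share was larger in uvr8 (11.4% ± 0.306), co (11.7% ± 0.0590) and hy5 (11.8% ± 0.213) than in WT (10.4% ± 0.436), with no overlap in any of the 3 pairs. By CPM, PSAL with UV-B stood at 1785 in uvr8, 1545 in co and 1307 in hy5, against 1420 in WT. The PSAH share went the other way, at 10.04% ± 0.484 in uvr8, 9.70% ± 0.437 in co and 10.15% ± 0.435 in hy5, against 11.71% ± 0.977 in WT, again with no overlap. That of PSAK lay below WT (13.6% ± 0.973) without overlap in co (11.5% ± 0.461) and hy5 (12.1% ± 0.426). PSAO took a larger share than in WT (6.51% ± 0.913) without overlap in uvr8 (7.91% ± 0.537) and co (8.07% ± 0.354). The same 3 WT libraries with UV-B stand in all these pairs with the mutants, so the pairs are not separate observations. Without UV-B, some shares also differed from WT without overlap (exact p = 0.10 for each). That of PSAO was larger in co (8.24% ± 0.439 against 7.37% ± 0.201 in WT). Larger too were PSAD in uvr8 (18.32% ± 0.339 against 17.27% ± 0.599) and PSAE in hy5 (13.03% ± 0.334 against 12.04% ± 0.373). PSAK was smaller in uvr8 (11.74% ± 0.270 against 13.26% ± 0.514). The PSAL and PSAH shares of each mutant overlapped with WT without UV-B.

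**Figure D4:**
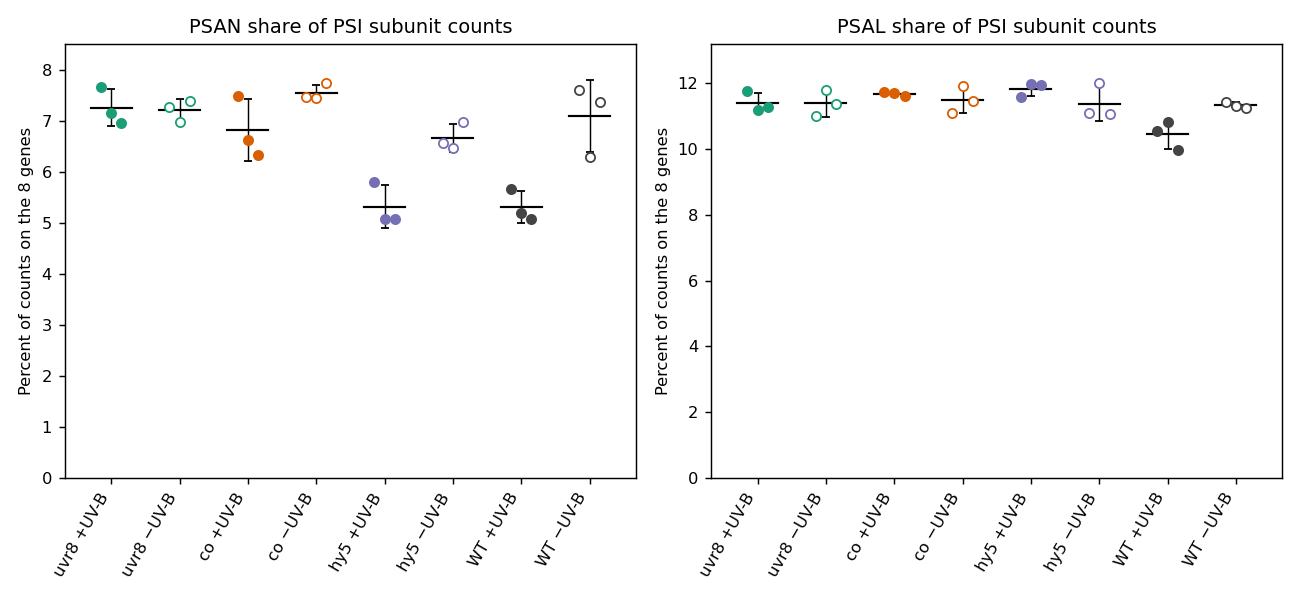
Share of PSAN and PSAL in the counts on the 8 PSI subunit genes (percent, vertical axis from 0) in the 8 groups, with 1 point per library, filled with UV-B and open without, a bar at the mean and a whisker for the SD. PSAN is lowest in hy5 and WT with UV-B (5.07% to 5.80%), and PSAL is lowest in WT with UV-B (mean 10.4%).

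By group mean, the CPM of PSAN ran from 1136 ± 81.8 in uvr8 with UV-B over 1076 ± 131 in uvr8 without it, 1009 ± 116 in co without, 985 ± 152 in WT without, 926 ± 83.7 in hy5 without and 901 ± 75.4 in co with UV-B to 723 ± 84.2 in WT with UV-B and 583 ± 32.5 in hy5 with UV-B. Neighbours among the first 6 overlapped in their libraries. The WT libraries with UV-B lay below those of co with UV-B, and the hy5 libraries with UV-B below those of WT with UV-B.

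The 8 members moved together over the 24 libraries. Pearson correlations of log2 CPM were positive for all 28 pairs, at 0.563 (PSAH with PSAN) to 0.904 (PSAH with PSAK), with a median of 0.774. Taken as deviations from the group means they were 0.395 to 0.937, with a median of 0.766. All points share their library's scaling and depth, and these values are descriptions without a test. PSAE followed the mean of the other 7 members most closely (0.950) and PSAN least (0.803). Among all other genes tested, Cre17.g720183, which carried no name here, was most like the mean of the 8 (0.922 over 24 libraries), followed by LHCA5 (0.909), LHCA2 (0.884) and LHCA7 (0.880). The 9 LHCA genes, which encode the LHCI antenna, had ranks 2 (LHCA5), 3 (LHCA2), 4 (LHCA7), 5 (LHCA9), 7 (LHCA8), 8 (LHCA1), 10 (LHCA6), 39 (LHCA3) and 72 (LHCA4). The PSII subunit genes PSBP1, PSBO, PSBQ and PSBY had ranks 6, 14, 15 and 16, and PSBX had rank 133 (0.644). Of the 4 electron partners, plastocyanin (PCY1) came closest, at 0.382 and rank 1342, named here after its value was seen.

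The neighbouring lists were set beside the PSI subunits in the 4 UV-B comparisons. In hy5 edgeR called 2 of 8 PSI subunits, 4 of 9 LHCI genes and 5 of 5 PSII subunits lower with UV-B, beside 2.54% of all genes, with median log2 fold changes of -0.34, -0.41 and -0.64. In WT the counts were 1 of 8, 1 of 9 and 3 of 5, beside 5.7% (5 of 5 PSII subunits with the replicate block, beside 12.8%), with medians of 0.00035, -0.25 and -0.45. In uvr8 and co the counts were 0 for each list, beside 0% and 1.72% of all genes, with medians of 0.08, 0.17 and 0.13 in uvr8 and -0.02, -0.01 and -0.06 in co. LHCA4 fell in hy5, at 1150 CPM with UV-B against 1931 CPM without (log2 fold change -0.75, adjusted p = 0.00253), and in WT, at 1173 CPM with against 1636 CPM without (-0.48, adjusted p = 0.0382). PSBY, a small PSII subunit, fell to 471 CPM in hy5 with UV-B, against 857 CPM without (-0.86, adjusted p = 9.35e-05), and to 556 CPM in WT with UV-B, against 923 CPM without (-0.73, adjusted p = 0.000443). LHCA1, LHCA5 and LHCA6 fell in hy5 by 0.53, 0.54 and 0.50 on the log2 scale. PSBO and PSBQ fell in both hy5 (-0.58 and -0.64) and WT (-0.44 and -0.45), and PSBP1 fell in hy5 (-0.61). Of the 4 electron partners 0 were called in any genotype, and 0 had an unadjusted p under 0.05. With the replicate block ferredoxin (FDX1) was called higher in WT with UV-B (log2 fold change 0.42, adjusted p = 0.0176) and cytochrome c6 (CYC6) lower (-1.51, adjusted p = 0.0252), beside 15.7% of all genes called higher and 12.8% lower. CYC6 stood at 1.38 CPM with UV-B against 3.38 CPM without UV-B. Under UV-B, uvr8 had higher levels than WT for 2 of 8 PSI subunits, 5 of 9 LHCI genes and 5 of 5 PSII subunits, beside 9.29% of all genes. Levels were lower in uvr8, as for 12.9% of all genes, for FDX1 (2183 CPM in uvr8 against 3520 CPM in WT) and ferredoxin-NADP reductase (FNR1, 1078 CPM in uvr8 against 1738 CPM in WT). Its LHCI genes with the smallest adjusted p were LHCA4, LHCA6, LHCA3 and LHCA1 (log2 fold changes 0.94, 0.62, 0.57 and 0.60), and its PSII genes PSBY, PSBO, PSBQ and PSBP1 (0.74, 0.60, 0.62 and 0.54). In co under UV-B LHCA4, LHCA3, LHCA6 and PSBO were higher than in WT (0.58, 0.42, 0.38 and 0.37) and FNR1 was lower (-0.81). With UV-B, CYC6 was called higher in co (6.14 ± 3.94 CPM) and in hy5 (9.67 ± 6.3 CPM) than in WT (1.38 ± 1.71 CPM). Its WT libraries with UV-B ran from 0.338 to 3.35 CPM, a low level with wide spread. Without UV-B, CYC6 also averaged more in co (9.53 ± 1.98 CPM) and hy5 (15.98 ± 1.78 CPM) than in WT (3.38 ± 1.16 CPM). These differences without UV-B were not called, but the higher CYC6 level is not read as tied to UV-B. With UV-B, 0 LHCI or PSII genes were called in hy5 against WT, beside 3.83% of all genes higher and 2.95% lower. These called companion genes kept their direction under all 3 scalings. The lists were chosen with earlier results of these data known, and a difference between them was not tested.

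**Figure D5:**
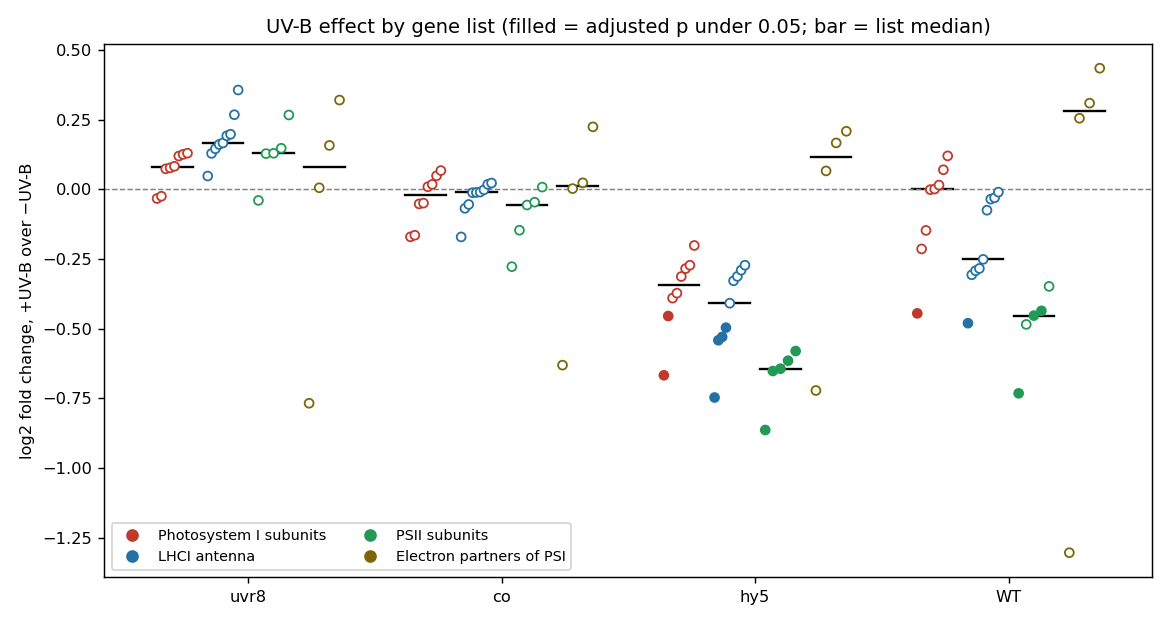
Log2 fold change with UV-B over without UV-B (vertical axis) of the genes in 4 lists, for uvr8, co, hy5 and WT, with 1 point per gene, filled where the adjusted p was under 0.05, and a bar at the list's median. In hy5 all PSI, LHCI and PSII genes lie below 0 (TMM scaling), with list medians of -0.34, -0.41 and -0.64, and in WT the PSI median (0.00035) lies above those of LHCI (-0.25) and PSII (-0.45).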

How the data were processed

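The deposited values are raw counts, whole numbers for each gene and each of the 24 libraries, which the authors had not normalized. The tools behind them included edgeR 3.42.4, HTSeq 0.11.3, STAR 2.7.10b and bcl2fastq 2.20.0, per the submitters' processing notes, which name no roles. Strand setting and handling of multiply matching reads: not given in the sources used here, so reads of close copies or antisense partners cannot be told apart. Per the labels' protocols the kit was a stranded mRNA kit. Groups and replicate numbers came from the sample titles, and gene names from locus identifiers. No member sequence was used here, and since the available RefSeq table is of another assembly, no coordinates are given and levels were not compared between genes.

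Genes had to pass edgeR's filterByExpr within groups, with a minimum count of 10 and a minimum total of 15. Counts were scaled by TMM (factors 0.670 to 1.20) and all 24 libraries were fitted together, each group with its own mean (edgeR 4.0.16 with limma 3.58.1, R 4.3.3; 16 residual degrees of freedom), in 13 comparisons. The SE is the log2 fold change divided by the square root of F, and p-values were adjusted over the 13613 genes by the Benjamini-Hochberg procedure. Correlations used log2(CPM + 1). Alternatives were other scalings, no filter, DESeq2 1.42.0, only the libraries compared, the replicate number as a block, leaving out each library and, added after the values were seen, leaving out every library numbered 1. The script was tested on simulated counts. Named genes are all members, the called genes of 3 companion lists (up to 4 by adjusted p), the 4 most similar genes, and any companion gene among the most similar ones with its rank. The members and lists were chosen with earlier results of these data known. Same-numbered libraries deviated together (lowest correlation over 0.1 for each number) for UV-B in WT, for uvr8 and hy5 against WT without UV-B and for all 3 mutants against WT with UV-B.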

Additional observations from a re-analysis of the deposited data

How the results depend on the processing

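Of the 7 member calls, the PSAN fall in hy5 kept its call in all 6 fits without 1 library and all 6 other settings (adjusted p = 6.91e-06 to 0.0298), and each of the other 6 lost it in at least 1. With library totals in place of TMM, members called numbered 3 for UV-B in WT (beside 14.1% of all genes called lower) and 5 for UV-B in hy5. Against WT with UV-B they numbered 7 for uvr8, 6 for co (beside 29.7% of all genes called higher) and 0 for hy5. For the UV-B effect in uvr8 minus WT they numbered 2 (beside 4.29% called higher). For the 5 in hy5 and the 7 in uvr8 the share of all genes is not given here, so these counts are not read as a trait of the members. With library totals PSAD turned to -0.26 in WT, and PSAD and PSAF to 0.41 and 0.46 in co against WT with UV-B. The replicate block gave 4 for UV-B in hy5, where the share of all genes is likewise not given. It gave 1 for co and 4 for hy5 against WT with UV-B, beside 14.4% of all genes called higher and 8.34% called lower. For the UV-B effect in uvr8 minus WT it gave 1 (PSAN, adjusted p = 0.00782), where 2003 of all genes were called. It changed no other count by over 1.5 times. For UV-B in hy5 and the 3 differences of effects the numbers did not pair the libraries by the correlation check, and there the block is only a hint. A fit of only the libraries compared gave 0 for UV-B in WT, 1 for UV-B in hy5, and 0 for uvr8 and for hy5 against WT with UV-B. The fit without a count filter gave 0 for hy5 against WT with UV-B, and DESeq2 gave 7 for UV-B in hy5. Leaving out libraries gave 0 to 1 for UV-B in WT, 1 to 2 for UV-B in hy5, 1 to 3 for uvr8 and 0 to 2 for hy5 against WT with UV-B. It gave 0 to 1 for co against WT with UV-B and for the UV-B effect in uvr8 minus WT, where the 1 came without all libraries numbered 1, as did the 3 for uvr8 against WT with UV-B (PSAL, adjusted p = 0.0120, besides PSAN and PSAO). Calls over all genes moved with the fit as well, at 911 to 3872 for UV-B in WT, 827 to 2625 in hy5, 0 to 1581 in uvr8 and 79 to 771 in co. They ranged over 1365 to 4702, 1177 to 4547 and 246 to 2445 for uvr8, co and hy5 against WT with UV-B, and over 352 to 2173, 224 to 1812 and 266 to 2128 without it. For the UV-B effect minus that of WT they ranged over 522 to 2003 in uvr8, 113 to 801 in co and 1 to 10 in hy5. The cause was not tested. With 3 libraries per group, differences of a size near the SE of 0.12 to 0.15 log2 were not detectable. The limit lay well above the SE. The smallest of the 7 called changes in the main fit was -0.44 (PSAN in WT), while PSAE in hy5 did not pass at -0.39. Where no member was called, changes below about this size could have been missed.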

Other observations

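The deviation of PSI transcripts by library number differed between groups with and without UV-B. Each set of 32 values below comes from 4 libraries, and the 8 members moved together, so the values are not separate observations. The same counts over all genes are not given, and a shift of whole libraries or of their scaling was not tested. Of the 32 values of libraries numbered 1 in the 4 groups with UV-B (8 members in 4 groups), 20 lay below their group's mean (median deviation -0.04 log2), while in the 4 groups without UV-B all 32 lay above it (median 0.16). Those below the mean with UV-B numbered 8 in hy5, 5 in co, 4 in uvr8 and 3 in WT. Of libraries numbered 2, 23 of 32 values with UV-B and 29 of 32 without lay below the mean. Of those numbered 3, 6 of 32 with UV-B and 30 of 32 without lay below it. PSAN and PSAF were below the group mean in all 8 libraries numbered 2.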
